A study of Mus musculus with 130 samples.

Results

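Cells that the FUCCI reporter placed in S-G2-M were set against cells that it placed in G0, in FVB/NJ mouse embryos of embryonic day 13.5 (E13.5). FUCCI is a pair of fluorescent proteins that are stable at different times of the cell cycle, a red one in resting and G1 cells and a green one once S phase has begun, until mitosis ends. The S-G2-M group is the gate titled GR and the G0 group the gate titled BR, each sorted from minced embryos of preparations 5 and 8, so that n = 2 preparations a side and each preparation gives both gates. The samples were chosen by these titles and not by any measured value: 8 of the 130 deposited samples, which are parts of 4 of the 25 libraries. All groups share the strain and carry the reporter, and the labels give no other allele and no treatment for preparations 5 and 8. The other libraries are G1, G1-S and unsorted cells of the same preparations, and the same 5 fractions of earlier embryos, from preparations titled WT1 and WT2 (E10.5) and WT3 (E11.5). The tissue label is embryo, and markers of neurons, muscle, cartilage, epidermis and blood were counted in all 4 libraries. The fit takes out the level of each preparation, so p-values measure how unevenly differences between fractions repeated in the 2 preparations. Neither the number of embryos in a preparation nor the meaning of its number is stated, so that spread may be technical.

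Entry into S phase is driven by activator E2F factors once cyclin-dependent kinases have freed them from the pocket proteins Rb1, Rbl1 and Rbl2. Genes of DNA replication peak at that transition, while genes of mitosis peak later, under the MuvB core with B-Myb and FoxM1. In resting cells the same MuvB core joins Rbl1 or Rbl2 with E2F4 or E2F5 in the DREAM complex, which holds both sets of genes down. In the embryo most cells that leave the cycle at this age are differentiating, and newborn neurons are the best known of them.

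The 4 libraries held 14692256 to 20122813 counts, and mitochondrially encoded genes took 2.08% and 2.30% of them in S-G2-M, against 1.66% and 2.47% in G0 (here and below the value of preparation 5 stands before that of preparation 8). The non-coding RNA Gm26917 took 2.51% and 5.35% of the counts in S-G2-M, against 1.74% and 5.50% in G0, so that it was higher in preparation 8 than in 5 in both gates, though not in G1 (2.83% and 2.63%). Of 20886 genes tested, 5829 were higher in S-G2-M (27.9%) and 6407 were lower (30.7%) at an adjusted p under 0.05, so that 58.6% of all genes passed, and the count of each list below is read against these shares. The lists were chosen with earlier results of these data known, so that reading is a description and no test. With a change of at least 2-fold asked for as well, 1885 genes were higher (9.03%) and 3291 lower (15.8%). A change of at least 16-fold was called for 212 genes that were higher and 304 that were lower. The median log2 change over all genes tested was -0.03. Where none of a list rose or none fell in this comparison, that count was 0 also at an unadjusted p under 0.05 and with DESeq2. When all 25 libraries shared the spread, 3847 genes were higher (against 5829), and list counts that moved by over 1.5 times there are given beside several lists below. The direction was the same in both preparations for 86.0% of the genes tested and for 99.9% of those called. The second share follows largely from the test, which used the same libraries, and is no separate support. Changes are given below on the log2 scale as S-G2-M minus G0 ± SE, and levels as CPM, which are counts scaled to the effective size of the library.

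**Figure D1:**
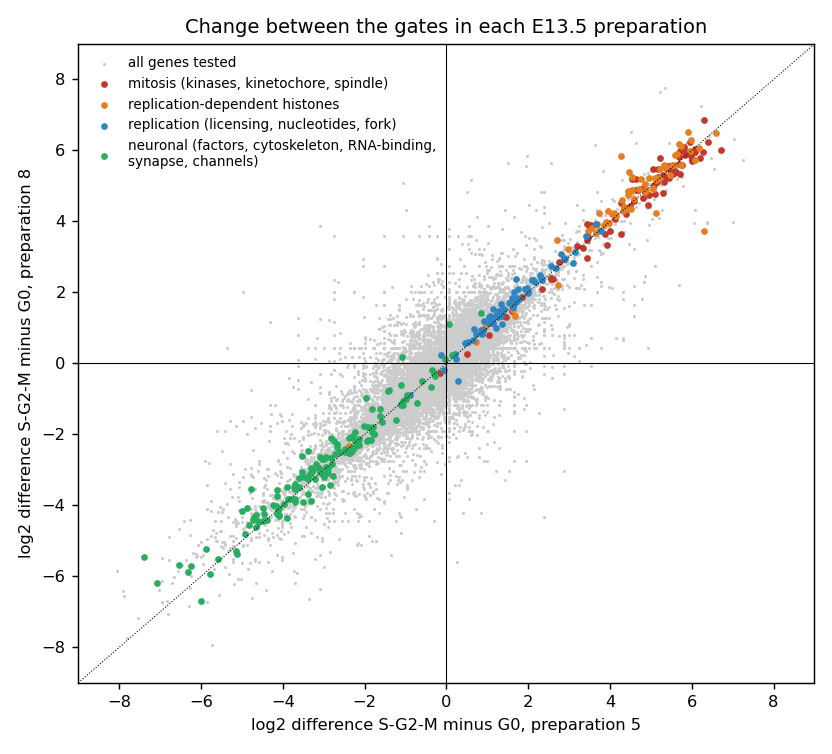
Log2 difference S-G2-M minus G0 in preparation 5 (horizontal) against preparation 8 (vertical), 1 point per gene tested, with the genes of 4 groups of lists in colour and the line of equal change dotted. The coloured genes lie along that line: genes of mitosis and replication-dependent histones at the upper right, genes of replication between them and 0, and neuronal genes at the lower left.

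The E2F factors and the pocket proteins were mostly higher in S-G2-M. Of 13 genes 11 rose, 1 fell and Rbl2 did not pass, and their summed level was 987 and 985 CPM in S-G2-M, against 467 and 456 CPM in G0 (median log2 change 1.11). The largest change was that of E2f8, an atypical E2F that represses E2F targets late in S phase, which stood at 76.4 and 76.6 CPM in S-G2-M, against 6.91 and 5.600 CPM in G0 (3.61 ± 0.11). Its partner in that role, E2f7, stood at 103 and 107 CPM in S-G2-M, against 16.8 and 16.7 CPM in G0 (2.65 ± 0.09). In both cases each S-G2-M library was far above each G0 library. Of the activators, E2f2 rose by 2.39 ± 0.12, E2f3 by 1.59 ± 0.08 and E2f1 by 1.31 ± 0.10. E2f1 stood at 35.2 and 44.8 CPM in S-G2-M, against 15.8 and 16.3 CPM in G0. The repressor E2Fs moved less, with changes of 1.11 ± 0.11 for E2f5, 0.74 ± 0.08 for E2f4 and 0.71 ± 0.08 for E2f6. The dimer partners Tfdp1 (1.09 ± 0.07) and Tfdp2 (0.61 ± 0.07) rose as well.

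The pocket proteins moved in different directions. Rbl1, which codes for p107 and is itself an E2F target, stood at 119.95 and 108 CPM in S-G2-M, against 26.97 and 25.1 CPM in G0 (2.13 ± 0.08). Rb1 stood at 60.3 and 51.1 CPM in S-G2-M, against 90.6 and 83.95 CPM in G0 and fell by 0.65 ± 0.08, although 14.9% of its exon length lies opposite another gene and whether counting used strand is not stated. Rbl2, which codes for p130 of the DREAM complex, stood at 34.9 and 32.9 CPM in S-G2-M, against 33.8 and 31.04 CPM in G0, and its change of 0.07 ± 0.09 did not pass (edgeR quasi-likelihood test, adjusted p = 0.545). Of the MuvB core with its activating partners, 7 of 8 genes rose and none fell (median 1.46). Foxm1, the forkhead factor of the G2/M program, stood at 234 and 258 CPM in S-G2-M, against 6.66 and 6.56 CPM in G0 (5.22 ± 0.10). Mybl2, which codes for B-Myb, rose by 2.801 ± 0.11 and its relative Mybl1 by 2.61 ± 0.13. The shared core subunits Lin54 (1.697 ± 0.10), Lin9 (1.21 ± 0.09) and Rbbp4 (0.52 ± 0.07) changed less, and Lin37 at 0.12 ± 0.17 did not pass (adjusted p = 0.568).

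All 21 cyclins, cyclin-dependent kinases and Cdk1 switches tested were higher in S-G2-M, with a median log2 change of 2.67. The mitotic members stood apart from the G1 members. Ccnb1, the cyclin B1 that activates Cdk1 for mitosis, stood at 285 and 240.3 CPM in S-G2-M, against 3.303 and 2.83 CPM in G0 (6.42 ± 0.11). Its phosphatase partner Cdc25c stood at 73.3 and 76.8 CPM in S-G2-M, against 1.201 and 1.17 CPM in G0 (5.97 ± 0.15), and Ccna2, the S and G2 cyclin A2, at 515 and 467 CPM in S-G2-M, against 14.1 and 11.9 CPM in G0 (5.24 ± 0.09). Cdk1 rose by 4.97 ± 0.09. Of the cyclins that act before S phase, Ccne1 stood at 50.4 and 50.7 CPM in S-G2-M, against 11.8 and 12.3 CPM in G0 (2.07 ± 0.09) and Ccne2 rose by 1.801 ± 0.13. The D cyclins, which link growth signals to Rb1, changed by 1.45 ± 0.07 (Ccnd1), 1.003 ± 0.07 (Ccnd2) and 0.96 ± 0.07 (Ccnd3). Ccnd1 stood at 246 and 244 CPM in S-G2-M, against 94.6 and 84.3 CPM in G0, although 23.4% of its exon length lies opposite another gene. Cdk4, the main kinase of the D cyclins, had the smallest change of the list at 0.67 ± 0.07.

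Inhibitors of these kinases were not lower in S-G2-M as a group: 4 of 5 tested rose and 1 fell (median 0.60), while Cdkn2a and Cdkn2b were too low to test. Cdkn2c, which codes for p18 and blocks Cdk4 and Cdk6, stood at 32.1 and 29.1 CPM in S-G2-M, against 1.101 and 0.693 CPM in G0 (5.08 ± 0.20). Cdkn2d, which codes for p19, stood at 21.98 and 23.1 CPM in S-G2-M, against 14.2 and 12.3 CPM in G0 (0.77 ± 0.13). Cdkn1b, which codes for p27, stood at 108 and 115 CPM in S-G2-M, against 71.8 and 75.2 CPM in G0 (0.60 ± 0.07), so that its transcript was the more abundant in the cycling gate in both preparations. Cdkn1c, the imprinted inhibitor p57, stood at 619 and 601 CPM in S-G2-M, against 542 and 545 CPM in G0 (0.17 ± 0.06, adjusted p = 0.0302), and its call was lost without preparation 5 (adjusted p = 0.112) or without 8 (adjusted p = 0.0627). Of its exon length 30.7% lies opposite another gene. Cdkn1a, the p53 target p21, stood at 3.52 and 4.798 CPM in S-G2-M, against 6.35 and 6.24 CPM in G0 (-0.62 ± 0.21), and its call was lost without preparation 5 (adjusted p = 0.397).

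The ubiquitin machinery that ends each phase was also mostly higher, with 15 of 18 genes up and 1 down (median 0.71). Ube2c, the ubiquitin-conjugating enzyme of the anaphase-promoting complex, stood at 245 and 237 CPM in S-G2-M, against 4.604 and 3.41 CPM in G0 (5.91 ± 0.10), and its activator Cdc20 at 267 and 269.6 CPM in S-G2-M, against 7.26 and 6.72 CPM in G0 (5.26 ± 0.09). Fbxo5, the inhibitor Emi1 that keeps that complex off through S and G2, rose by 3.98 ± 0.10. Skp2 and Dtl, which direct the removal of p27 and of Cdt1, rose by 1.95 ± 0.08 and 1.73 ± 0.09. Fzr1, which codes for Cdh1 and holds the complex active in G0 and G1, was at 201 and 209 CPM in S-G2-M, against 65.7 and 69.4 CPM in G0 (1.601 ± 0.07). The member that fell was Btrc, the substrate receptor beta-TrCP, at 71.3 and 70.03 CPM in S-G2-M, against 103 and 101 CPM in G0 (-0.53 ± 0.07). In the original FUCCI design the red and green proteins carry parts of Cdt1 and geminin, whose own transcripts were both higher in the green gate: Gmnn stood at 36.3 and 39.7 CPM in S-G2-M, against 4.85 and 5.17 CPM in G0 (2.92 ± 0.13) and Cdt1 at 56.3 and 63.9 CPM in S-G2-M, against 22.8 and 22.7 CPM in G0 (1.397 ± 0.08). Whether transcripts of the reporter itself were counted here was not tested.

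Genes of DNA replication rose by less than those of mitosis. Of 23 licensing and helicase genes 20 rose and none fell (median 1.19), and 16 of them were at least 2-fold higher, against 9.03% of all genes. Mcm10, which helps to start the helicase, stood at 109.9 and 113 CPM in S-G2-M, against 12.3 and 12.8 CPM in G0 (3.15 ± 0.09), and Dbf4, the activator of the Cdc7 kinase, at 188 and 161 CPM in S-G2-M, against 21.9 and 22.7 CPM in G0 (2.97 ± 0.09). The helicase subunits Mcm2 to Mcm7 changed by only 0.81 ± 0.08 (Mcm4) to 1.73 ± 0.07 (Mcm5), and Mcm5 stood at 214 and 236 CPM in S-G2-M, against 70.1 and 65.3 CPM in G0. The origin recognition subunits Orc3, Orc4 and Orc5 did not pass, at 0.19 ± 0.09, -0.11 ± 0.14 and 0.23 ± 0.11. Of the genes of deoxynucleotide supply 12 of 15 rose and 1 fell (median 1.31). Tk1, the thymidine kinase of S phase, stood at 85.7 and 89.6 CPM in S-G2-M, against 6.81 and 5.92 CPM in G0 (3.78 ± 0.10), and Rrm2, the S phase subunit of ribonucleotide reductase, at 206 and 212 CPM in S-G2-M, against 19.4 and 17.5 CPM in G0 (3.497 ± 0.08). The member that fell was Rrm2b, the p53-induced form of that subunit used outside S phase, at 8.08 and 8.31 CPM in S-G2-M, against 15.1 and 15.6 CPM in G0 (-0.90 ± 0.14).

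All 31 polymerase and fork genes rose (median 1.61), led by Asf1b, a histone chaperone of the fork, at 40.6 and 41.2 CPM in S-G2-M, against 2.95 and 3.09 CPM in G0 (3.75 ± 0.13). Clspn, the checkpoint adaptor claspin, rose by 2.95 ± 0.09 and Atad2, a chromatin ATPase, by 2.65 ± 0.08. Pcna, the sliding clamp, stood at 144 and 168 CPM in S-G2-M, against 37.9 and 39.1 CPM in G0 (2.01 ± 0.07). Recombination and crosslink repair genes, which act on sister chromatids after replication, rose in all 23 cases with a larger median, 2.73. Fancd2, the central protein of crosslink repair, stood at 81.3 and 77.9 CPM in S-G2-M, against 3.45 and 2.93 CPM in G0 (4.64 ± 0.12). Eme1, a resolvase subunit, rose by 4.21 ± 0.15 and Fanci by 4.03 ± 0.12. Msh6, a mismatch repair gene of the same list, rose by 0.78 ± 0.07.

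The G1-S gate of the same preparations gave a further comparison by direction. Of the 23 licensing genes 16 were lower in S-G2-M than in the G1-S gate in both preparations and 5 were higher, and of the 31 polymerase and fork genes 17 were lower and 11 higher. Recombination genes divided evenly, with 9 higher and 9 lower of 23. By contrast all 27 mitotic kinases and regulators and all 27 spindle genes were higher in S-G2-M than in G1-S in both preparations, as were 30 of 32 kinetochore genes. These counts rest on the direction in 2 preparations and were not tested. No share of all genes in each direction is given beside them, and lists outside the cell cycle were uneven too. Of 38 cilium genes 27 were higher in S-G2-M than in G1-S and 1 was lower, and of 17 hepatocyte genes 0 were higher and 17 lower. The counts of replication genes are therefore no result particular to replication.

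The lists of spindle genes and of mitotic kinases had the highest medians of all lists. All 27 mitotic kinases and regulators rose, with a median log2 change of 5.19 and a summed level of 8032 and 7989.5 CPM in S-G2-M, against 388 and 421 CPM in G0. Aurkb, the Aurora kinase of the chromosomal passenger complex, stood at 157 and 165 CPM in S-G2-M, against 2.502 and 2.13 CPM in G0 (6.11 ± 0.14). Plk1, the polo-like kinase, rose by 5.87 ± 0.10 and Depdc1a by 6.42 ± 0.22. Top2a, the topoisomerase that untangles chromosomes, stood at 1903 and 1819 CPM in S-G2-M, against 36.8 and 32.00 CPM in G0 (5.76 ± 0.09). Mki67, the chromosome surface protein used as a proliferation marker, stood at 2261 and 2269 CPM in S-G2-M, against 49.6 and 50.5 CPM in G0 (5.499 ± 0.08), so that its transcript was still counted in cells gated as G0. The member with the smallest change was Lmnb1, a lamin of the nuclear envelope, at 1.39 ± 0.07.

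All 27 genes of spindle motors and cytokinesis rose, with a median of 5.501. Iqgap3, a scaffold of the actin cortex, stood at 244 and 252 CPM in S-G2-M, against 3.05 and 2.13 CPM in G0 (6.57 ± 0.12). Kif2c, a kinesin that takes microtubules apart at kinetochores, stood at 199 and 202 CPM in S-G2-M, against 2.35 and 2.67 CPM in G0 (6.32 ± 0.10). For Aspm, a spindle pole protein whose loss gives microcephaly in people, the values were 774 and 690.4 CPM in S-G2-M, against 11.4 and 10.5 CPM in G0 (6.06 ± 0.09). The microtubule polymerase Ckap5 had the smallest change of the list, 1.37 ± 0.07. Of 32 kinetochore and spindle checkpoint genes 31 rose (median 3.67). Cenpf, a large kinetochore protein, stood at 790.1 and 761 CPM in S-G2-M, against 10.3 and 12.3 CPM in G0 (6.11 ± 0.10). The checkpoint kinase Bub1b rose by 5.66 ± 0.09, and Cenpa, the histone that marks centromeres, rose by 5.34 ± 0.09. The gene that fell was Zwint, at 139 and 143 CPM in S-G2-M, against 155 and 173 CPM in G0 (-0.22 ± 0.07), and its call was lost without preparation 5 (adjusted p = 0.0669) or without 8 (adjusted p = 0.348).

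Outside the lists, the largest rise among genes whose mean log2 CPM was 3 or more, predicted genes, pseudogenes and small RNAs left out, was that of Pif1 (ENSMUSG00000041064.13, chromosome 9 from 65587160 to 65595967, plus strand in GRCm38), a DNA helicase of replication forks and telomeres. It stood at 99.5 and 109 CPM in S-G2-M, against 1.301 and 0.693 CPM in G0 (6.68 ± 0.16, edgeR adjusted p = 4.96e-19). Depdc1b, a relative of Depdc1a, stood at 77.6 and 71.7 CPM in S-G2-M, against 0.851 and 1.28 CPM in G0 (6.13 ± 0.15). The other genes of the 12 with the largest rise were Hist1h2af, Ccnb1, Iqgap3, Kif2c, Hist1h3c, Hist1h3g, Hist1h3b, Aurkb, Cenpf and Aspm, each of them in a list described here.

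Genes of chromosome structure were higher as well. All 17 condensin and cohesin genes rose (median 1.39). Esco2, the acetyltransferase that fixes cohesin in S phase, stood at 77.4 and 69.96 CPM in S-G2-M, against 1.401 and 1.81 CPM in G0 (5.52 ± 0.15), and Ncapg, a condensin I subunit, at 194 and 179 CPM in S-G2-M, against 4.904 and 5.28 CPM in G0 (5.196 ± 0.10). The ring subunits Smc4 and Smc2 of condensin rose by 3.65 ± 0.08 and 2.91 ± 0.07, whereas the cohesin subunits Smc3 (0.51 ± 0.07), Stag1 (0.57 ± 0.06) and Pds5b (0.40 ± 0.07) rose by less. For centriole duplication 11 of 12 genes rose (median 1.45), with the assembly protein Stil at 3.55 ± 0.10 and the kinase Plk4 that starts the process at 2.99 ± 0.10. The primary cilium, which is taken apart before mitosis and built on the same centrioles, showed no such shift: 8 of 38 genes rose (5 with all 25 libraries) and 10 fell (median 0.00). The kinesin II subunit Kif3a stood at 57.5 and 57.1 CPM in S-G2-M, against 114 and 132 CPM in G0 (-1.096 ± 0.08), and Ift80, of the intraflagellar transport particle, at 74.7 and 67.02 CPM in S-G2-M, against 33.1 and 32.8 CPM in G0 (1.11 ± 0.08).

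Promoters of mitotic and of replication genes are known for different elements, and promoter windows from RefSeq on GRCm38.p6 were searched for 3 of these. The elements were the E2F site (TTTCCCGC, TTTGGCGC, TTTCGCGC or TTTGCCGC), the cell cycle homology region or CHR that the MuvB core binds (TTTGAA), and the CCAAT box that NF-Y binds, each on both strands of the 250 bases before the start. Only genes with 1 window were used. Of 68 mitosis genes 30.9% held a CHR, 64.7% a CCAAT box and 8.82% an E2F site, and 23.5% held a CHR together with a CCAAT box. Of 46 replication genes 10.9% held a CHR, 52.2% a CCAAT box and 19.6% an E2F site. Over all 10064 genes tested that had 1 window the shares were 10.6%, 36.1% and 3.31%, and over all 22862 RefSeq genes with 1 window they were 16.7%, 34.7% and 1.93%. The 74 neuronal genes held a CHR in 5.41%, a CCAAT box in 32.4% and an E2F site in 1.35% of cases. Smaller groups had 16 recombination genes, with a CHR in 6.25% and an E2F site in 12.5%, and 6 genes of E2F factors and pocket proteins, of which 33.3% held a CHR and 33.3% an E2F site. Among genes of any list or none, 22.2% of 297 that were at least 4-fold higher in S-G2-M held a CHR and 5.72% an E2F site, against 10.7% and 1.15% of 609 that were at least 4-fold lower. A match of letters is a description and no evidence of binding.

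**Figure D2:**
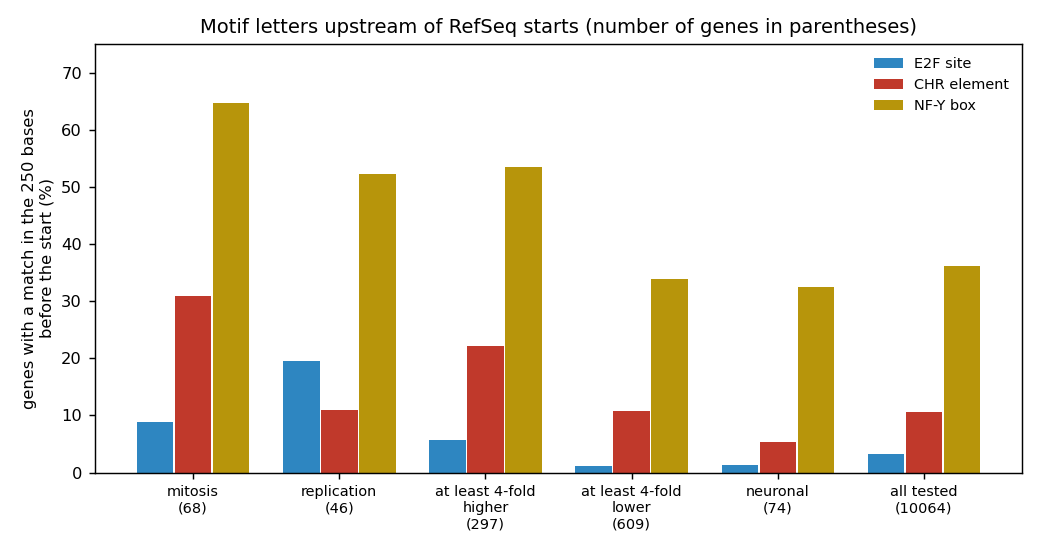
Share of genes (%, vertical, from 0) with at least 1 match to the E2F site, the CHR element or the NF-Y box (CCAAT) in the 250 bases before the RefSeq start, for 6 groups of genes with their number in parentheses. Of the groups drawn, mitosis genes have the highest CHR share (30.9%) and replication genes the highest E2F share (19.6%).

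The ends of the windows next to the start, not the whole 250 bases, are given for 4 mitotic genes and for 3 genes that hold an E2F site and no CHR, as examples chosen after the windows were read, with E2F, CHR and CCAAT matches in capitals on the strand of the gene and the last base next to the start.
Cdk1: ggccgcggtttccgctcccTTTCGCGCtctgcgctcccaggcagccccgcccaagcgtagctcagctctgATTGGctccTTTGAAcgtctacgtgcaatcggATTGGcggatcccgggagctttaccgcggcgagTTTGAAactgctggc
Top2a: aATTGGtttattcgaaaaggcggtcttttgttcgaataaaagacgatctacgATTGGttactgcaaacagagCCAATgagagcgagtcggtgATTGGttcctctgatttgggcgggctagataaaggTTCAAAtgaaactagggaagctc
Ube2c: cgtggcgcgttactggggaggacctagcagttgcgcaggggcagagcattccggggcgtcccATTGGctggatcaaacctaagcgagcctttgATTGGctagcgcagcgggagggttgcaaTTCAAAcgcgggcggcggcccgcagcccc
Kif11: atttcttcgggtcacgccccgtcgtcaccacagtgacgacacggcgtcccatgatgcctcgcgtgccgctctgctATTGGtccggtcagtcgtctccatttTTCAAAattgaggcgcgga
Mcm5: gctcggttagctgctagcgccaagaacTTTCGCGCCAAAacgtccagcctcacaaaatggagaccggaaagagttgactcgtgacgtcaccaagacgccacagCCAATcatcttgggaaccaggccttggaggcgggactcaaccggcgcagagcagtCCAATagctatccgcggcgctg
Mcm6: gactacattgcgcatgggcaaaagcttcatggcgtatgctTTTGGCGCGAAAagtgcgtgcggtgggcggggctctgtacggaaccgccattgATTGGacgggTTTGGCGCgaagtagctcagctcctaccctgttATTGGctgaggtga
Rbl1: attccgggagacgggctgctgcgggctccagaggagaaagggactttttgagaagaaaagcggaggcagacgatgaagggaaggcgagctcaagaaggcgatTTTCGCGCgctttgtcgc

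The mitotic windows lie at chr10:69352913-69353062 (Cdk1, minus strand), chr11:99024190-99024339 (Top2a, minus), chr2:164769779-164769928 (Ube2c, plus) and chr19:37376262-37376381 (Kif11, plus). In each, a CHR stands nearest to the start with a CCAAT box before it: the CHR begins 19 and the nearest CCAAT box 45 bases before the start in Kif11, 29 and 57 in Ube2c, and 23 and 58 in Top2a. In the bases printed Cdk1 holds a pair of each and an E2F site 131 bases before the start, and its whole window holds 3 CCAAT boxes. The other windows lie at chr8:75109329-75109508 (Mcm5, plus), chr1:128359706-128359855 (Mcm6, minus) and chr2:157204535-157204654 (Rbl1, minus). Mcm5 and Mcm6 each hold overlapping E2F matches on opposite strands, printed as 1 run of capitals, together with CCAAT boxes. Rbl1 holds an E2F site 18 bases before the start. For the genes of these windows, Cdk1, Top2a, Ube2c and Kif11 rose by 4.97 ± 0.09, 5.76 ± 0.09, 5.91 ± 0.10 and 5.93 ± 0.11, while Mcm5, Mcm6 and Rbl1 rose by 1.73 ± 0.07, 1.17 ± 0.07 and 2.13 ± 0.08.

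Replication-dependent histone genes, whose transcripts are made and kept during S phase, were higher in S-G2-M with few exceptions. Of 65 genes 64 rose and 1 fell (median 4.72), and their summed level was 20053 and 26584 CPM in S-G2-M, against 964 and 1196 CPM in G0. The sum was higher in preparation 8 than in 5 in both gates. Hist1h2af, an H2A gene, stood at 249 and 298 CPM in S-G2-M, against 2.55 and 3.31 CPM in G0 (6.55 ± 0.18). The H3 gene Hist1h3c stood at 339 and 550.5 CPM in S-G2-M, against 5.65 and 5.92 CPM in G0 (6.24 ± 0.24), the difference between the preparations in S-G2-M being small beside that between the gates. Hist1h3g and Hist1h3b, of the same class, rose by 6.14 ± 0.15 and 6.12 ± 0.16. The linker histone gene Hist1h1b rose by 5.74 ± 0.11. The gene that fell was Hist3h2a, at 2.52 and 2.72 CPM in S-G2-M, against 13.2 and 13.9 CPM in G0 (-2.38 ± 0.21), and Hist3h2ba, an H2B gene of the same cluster, changed by 0.99 ± 0.16. Members of this family are near-identical, so values of single genes are uncertain where reads can be split between copies. In Hist1h2af 35.3% of the exons also overlap a gene of the other strand.

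Histone variants that are made outside S phase moved less. Of 10 genes 7 rose and 1 fell (median 1.097). H2afx, whose protein marks DNA breaks when phosphorylated and whose gene also gives a replication-type transcript, stood at 572 and 745 CPM in S-G2-M, against 34.7 and 30.03 CPM in G0 (4.33 ± 0.12). H2afz and H2afv, both H2A.Z genes, rose by 1.68 ± 0.10 and 1.65 ± 0.08. H3f3b changed by 0.27 ± 0.06, and H3f3a, the other gene of H3.3, at -0.12 ± 0.07 did not pass (adjusted p = 0.166). The member called lower, H2afy2, stood at 146 and 158 CPM in S-G2-M, against 162 and 187 CPM in G0 (-0.19 ± 0.07), and its call was lost without preparation 5 (adjusted p = 0.140) or without 8 (adjusted p = 0.371).

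**Figure D3:**
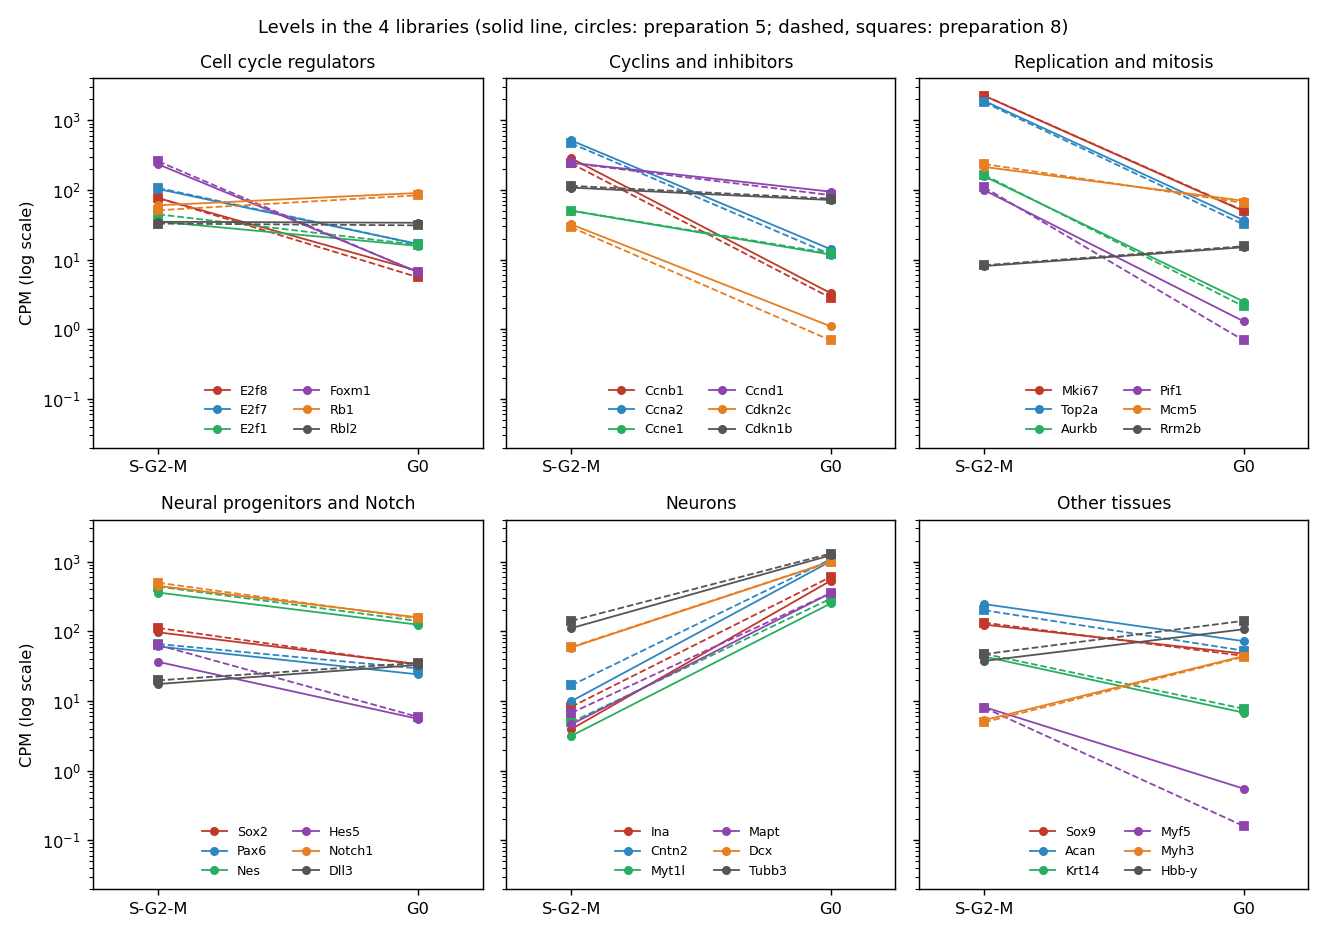
CPM on a log axis in the S-G2-M and G0 libraries for 6 genes in each of 6 panels, with preparation 5 as circles on solid lines and preparation 8 as squares on dashed lines. The lines of the preparations lie close for most genes, and less so for some at low levels. The largest differences between the gates are among genes of the cell cycle and of neurons, as Pif1 (99.5 and 109 CPM in S-G2-M, 1.301 and 0.693 CPM in G0) and Ina (3.94 and 8.23 CPM in S-G2-M, 533 and 605 CPM in G0).

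Chromatin regulators did not share a direction. Of 8 DNA methylation genes 4 rose and 3 fell. Uhrf1, which brings the maintenance enzyme to newly made DNA, stood at 293 and 312 CPM in S-G2-M, against 58.99 and 60.2 CPM in G0 (2.34 ± 0.07), and that enzyme, Dnmt1, at 574 and 629 CPM in S-G2-M, against 251 and 275 CPM in G0 (1.19 ± 0.07). Tet2 and Tet3, which oxidise methylated cytosine, fell by 0.64 ± 0.08 and 0.56 ± 0.07, while Dnmt3a at 0.03 ± 0.07 did not pass (adjusted p = 0.708). Of 15 Polycomb genes 6 rose and 4 fell. Ezh2, the main methyltransferase of dividing cells, rose by 0.89 ± 0.07, and its paralogue Ezh1 stood at 22.6 and 21.9 CPM in S-G2-M, against 30.4 and 32.7 CPM in G0 (-0.51 ± 0.11). Suz12 and Eed, the partners of Ezh2, rose by 1.02 ± 0.08 and 0.91 ± 0.09, and Jarid2 fell by 0.77 ± 0.07.

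The BAF remodelling complex exchanges some subunits when neural progenitors become neurons. Of 7 subunits used in neurons 6 fell and none rose (median -1.98). Actl6b, which codes for BAF53b, stood at 0.682 and 1.29 CPM in S-G2-M, against 48.99 and 58.2 CPM in G0 (-5.81 ± 0.18), and its progenitor counterpart Actl6a at 102 and 99.03 CPM in S-G2-M, against 55.6 and 54.5 CPM in G0 (0.87 ± 0.07). Dpf3 and Ss18l1 fell by 3.600 ± 0.14 and 2.18 ± 0.09, while Ss18, the counterpart of Ss18l1, rose by 0.91 ± 0.07. Of the 8 progenitor subunits 4 rose and 2 fell. Those called lower were Bcl11a, at 158 and 160.5 CPM in S-G2-M, against 322 and 355 CPM in G0 (-1.09 ± 0.08), and Smarca4, the ATPase Brg1, at 579 and 644 CPM in S-G2-M, against 685 and 869 CPM in G0 (-0.34 ± 0.07), the second of which lost its call without preparation 8 (adjusted p = 0.0609).

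Genes of neural progenitors were higher in S-G2-M. Of 20 genes 16 rose and 1 fell, against 27.9% and 30.7% of all genes, and their summed level was 2212 and 2400.1 CPM in S-G2-M, against 1278 and 1279 CPM in G0 (median 1.24). Sox2, the factor of neural stem cells, stood at 96.7 and 112 CPM in S-G2-M, against 33.9 and 33.2 CPM in G0 (1.63 ± 0.09), and its relatives Sox3 and Sox21 rose by 2.62 ± 0.17 and 1.697 ± 0.11. Nes, the intermediate filament nestin, stood at 360.2 and 438 CPM in S-G2-M, against 125 and 141 CPM in G0 (1.58 ± 0.10), and Pax6, a factor of dorsal progenitors, at 60.6 and 65.8 CPM in S-G2-M, against 24.1 and 29.3 CPM in G0 (1.24 ± 0.10). Gsx2, of the ventral forebrain, had the largest change at a low level, 3.04 and 4.01 CPM in S-G2-M, against 0.3503 and 0.427 CPM in G0 (3.16 ± 0.38). The gene that fell was Nkx2-2, of ventral progenitors and some of their neurons, at 0.892 and 1.002 CPM in S-G2-M, against 6.105 and 5.65 CPM in G0 (-2.64 ± 0.29). Here as in every list of cell type markers, fewer cells of a type and less RNA per cell cannot be told apart in these bulk samples.

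Notch receptors and their targets were higher and several ligands lower. Of 22 genes 14 rose and 5 fell, or 3 with all 25 libraries (median 0.89). Hes5, a Notch target that keeps progenitors from differentiating, stood at 36.4 and 63.5 CPM in S-G2-M, against 5.55 and 5.92 CPM in G0 (3.08 ± 0.14), with 31.8% of its exon length opposite another gene. Hes1, another target, stood at 66.01 and 94.7 CPM in S-G2-M, against 18.6 and 26.1 CPM in G0 (1.84 ± 0.10). Notch1, Notch3 and Notch2 rose by 1.598 ± 0.07, 1.31 ± 0.07 and 0.87 ± 0.06, and Lfng, a glycosyltransferase that modifies the receptors, by 2.48 ± 0.10. Neurog2, a proneural factor, stood at 35.7 and 42.4 CPM in S-G2-M, against 13.9 and 14.1 CPM in G0 (1.48 ± 0.11). Among ligands Dll3 fell to 17.5 and 19.8 CPM in S-G2-M, against 32.9 and 35.2 CPM in G0 (-0.87 ± 0.11), and Jag2 fell by 0.65 ± 0.09. Atoh1, of cerebellar and dorsal neuron precursors, was at 0.262 and 0.501 CPM in S-G2-M, against 1.601 and 2.35 CPM in G0 (-2.39 ± 0.45). Jag1 and Dll4 were also called lower, at -0.20 ± 0.08 and -0.59 ± 0.18, but lost the call without preparation 5 (Jag1, adjusted p = 0.823) or without 8 (Dll4, adjusted p = 0.267).

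Neuronal lists had the lowest medians of all. Across factors, cytoskeleton, RNA-binding proteins, synapse and channels, 27 of 30, 25 of 26, 15 of 15, 27 of 31 and 33 of 34 genes fell, against 30.7% of all genes, and the exception that rose was Dbh among the synapse genes. The summed level of the factors was 562 and 577 CPM in S-G2-M, against 3177 and 3579 CPM in G0, and that of the cytoskeleton list 2516 and 2777 CPM in S-G2-M, against 15558 and 16719 CPM in G0. Expressed as medians, the log2 changes were -2.897, -2.596, -3.09, -3.08 and -3.39 in the order above.

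Among the factors, Myt1l, which represses other fates in neurons, stood at 3.15 and 4.94 CPM in S-G2-M, against 251 and 295 CPM in G0 (-6.11 ± 0.12), and Lhx5, of spinal and brain interneurons, at 0.682 and 1.58 CPM in S-G2-M, against 66.4 and 82.4 CPM in G0 (-6.101 ± 0.17). Skor1, a corepressor of dorsal spinal neurons that is in no list, stood at 0.682 and 1.36 CPM in S-G2-M, against 74.2 and 102 CPM in G0 (-6.46 ± 0.17), and Pou4f1, of sensory neurons, fell by 5.56 ± 0.19. Members of the proneural cascade differed in direction. Neurog2, above, was higher in S-G2-M, Insm1 did not pass (47.5 and 61.2 CPM in S-G2-M, against 43.1 and 52.3 CPM in G0, adjusted p = 0.109), and Neurod1 and Neurod4 fell by 1.57 ± 0.14 and 1.41 ± 0.19. Neurod2 and Neurod6, of later cortical neurons, fell by 3.24 ± 0.11 and 2.46 ± 0.10. Phox2a, of autonomic neurons, did not pass, at 0.62 ± 0.43.

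Among structural genes, Ina (ENSMUSG00000034336.3, chromosome 19 from 47014698 to 47025327, plus strand in GRCm38), the neurofilament protein alpha-internexin, had the largest fall of any gene by the same rule. It stood at 3.94 and 8.23 CPM in S-G2-M, against 533 and 605 CPM in G0 (-6.604 ± 0.20, edgeR adjusted p = 1.96e-09), and 14.1% of its exon length lies opposite another gene. Mapt, the tau protein of axons, stood at 4.62 and 6.73 CPM in S-G2-M, against 354 and 353 CPM in G0 (-5.99 ± 0.18), and Tubb3, the neuronal tubulin, at 111 and 141 CPM in S-G2-M, against 1236 and 1308 CPM in G0 (-3.35 ± 0.09). Dcx, the doublecortin of migrating neurons, stood at 58.5 and 59.5 CPM in S-G2-M, against 995 and 1003 CPM in G0 (-4.08 ± 0.07). Kif21a, a kinesin, had the smallest called change, -0.52 ± 0.08, and Nefh did not pass (-0.90 ± 0.39, adjusted p = 0.0524). Of the RNA-binding proteins, Srrm3, a splicing regulator of neuronal microexons, fell by 4.56 ± 0.24, Celf5 by 4.42 ± 0.18 and Elavl4, the neuronal Hu protein HuD, by 2.16 ± 0.08, whereas Ptbp2 changed by -0.32 ± 0.07 and Rbfox2 by -1.12 ± 0.06.

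Genes of synapses and channels fell to a similar degree. Chgb, a granin of dense core vesicles, stood at 0.682 and 1.36 CPM in S-G2-M, against 41.8 and 52.7 CPM in G0 (-5.57 ± 0.18), and Syt4 fell by 4.61 ± 0.18. The vesicle genes Snap25 and Syp were at 3.73 and 5.51 CPM in S-G2-M, against 66.6 and 65.5 CPM in G0, and at 7.24 and 7.88 CPM in S-G2-M, against 59.5 and 68.8 CPM in G0. Slc17a6, the glutamate transporter of vesicles, fell by 3.75 ± 0.09 and Gad1, which makes GABA, by 4.09 ± 0.13. Scn3a, a sodium channel of embryonic neurons, stood at 17.2 and 18.7 CPM in S-G2-M, against 250.5 and 264 CPM in G0 (-3.84 ± 0.08). The 12 genes with the largest fall included, from outside the lists, Rab3c, of synaptic vesicles, at -5.75 ± 0.13, Svop, another vesicle protein, at -5.35 ± 0.16, and Asic1, an acid-sensing channel, at -5.403 ± 0.14. Ptpn5, a neuronal tyrosine phosphatase, was at 1.102 and 1.58 CPM in S-G2-M, against 51.7 and 57.5 CPM in G0 (-5.38 ± 0.17). Dbh, which makes noradrenaline, was the opposite of these, at 4.88 and 5.73 CPM in S-G2-M, against 2.702 and 2.13 CPM in G0 (1.12 ± 0.25).

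Genes of axon guidance and adhesion were mostly lower in S-G2-M. Of 30 genes 3 rose and 24 fell (median -1.23). Cntn2, the axonal adhesion protein TAG-1, stood at 9.92 and 16.8 CPM in S-G2-M, against 1011 and 1084 CPM in G0 (-6.33 ± 0.19). Robo3, of commissural axons, stood at 7.87 and 15.2 CPM in S-G2-M, against 296 and 536 CPM in G0 (-5.18 ± 0.27), and L1cam, of growing axons, fell by 3.93 ± 0.09. Of the secreted cues Slit2 was at -0.43 ± 0.07, while Slit3 did not pass (0.12 ± 0.07). Epha4, a receptor also found in mesenchyme, rose by 0.32 ± 0.07, Unc5b by 0.29 ± 0.08 and Sema3a by 0.26 ± 0.08, the last of which lost its call without preparation 8 (adjusted p = 0.0668). With all 25 libraries none of the 3 passed (edgeR adjusted p = 0.0641, 0.144 and 0.137).

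Peripheral neurons and their glia were split. Of 15 genes of sensory and autonomic neurons 4 rose and 8 fell (median -0.47), and the median was -0.10 without preparation 5, with 5 up and 6 down. Prrxl1, of pain-sensing neurons, stood at 0.525 and 1.002 CPM in S-G2-M, against 27.6 and 28.6 CPM in G0 (-5.25 ± 0.25). Hand2, of sympathetic precursors and limb mesenchyme, rose by 1.35 ± 0.11, and Runx3, of proprioceptive neurons and of cartilage, by 2.05 ± 0.26 at low levels (7.35 and 7.304 CPM in S-G2-M, against 2.302 and 1.23 CPM in G0). Of 12 genes of Schwann cells and glial precursors 5 rose and 4 fell, and 2 fell without preparation 5. Sox8 stood at 24.98 and 21.3 CPM in S-G2-M, against 7.46 and 4.91 CPM in G0 (1.904 ± 0.13) and Erbb3, the neuregulin receptor of Schwann cell precursors, at 87.1 and 95.8 CPM in S-G2-M, against 39.9 and 42.1 CPM in G0 (1.15 ± 0.08), while Pou3f1, of Schwann cells before myelin, fell by 1.53 ± 0.15.

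**Figure D4:**
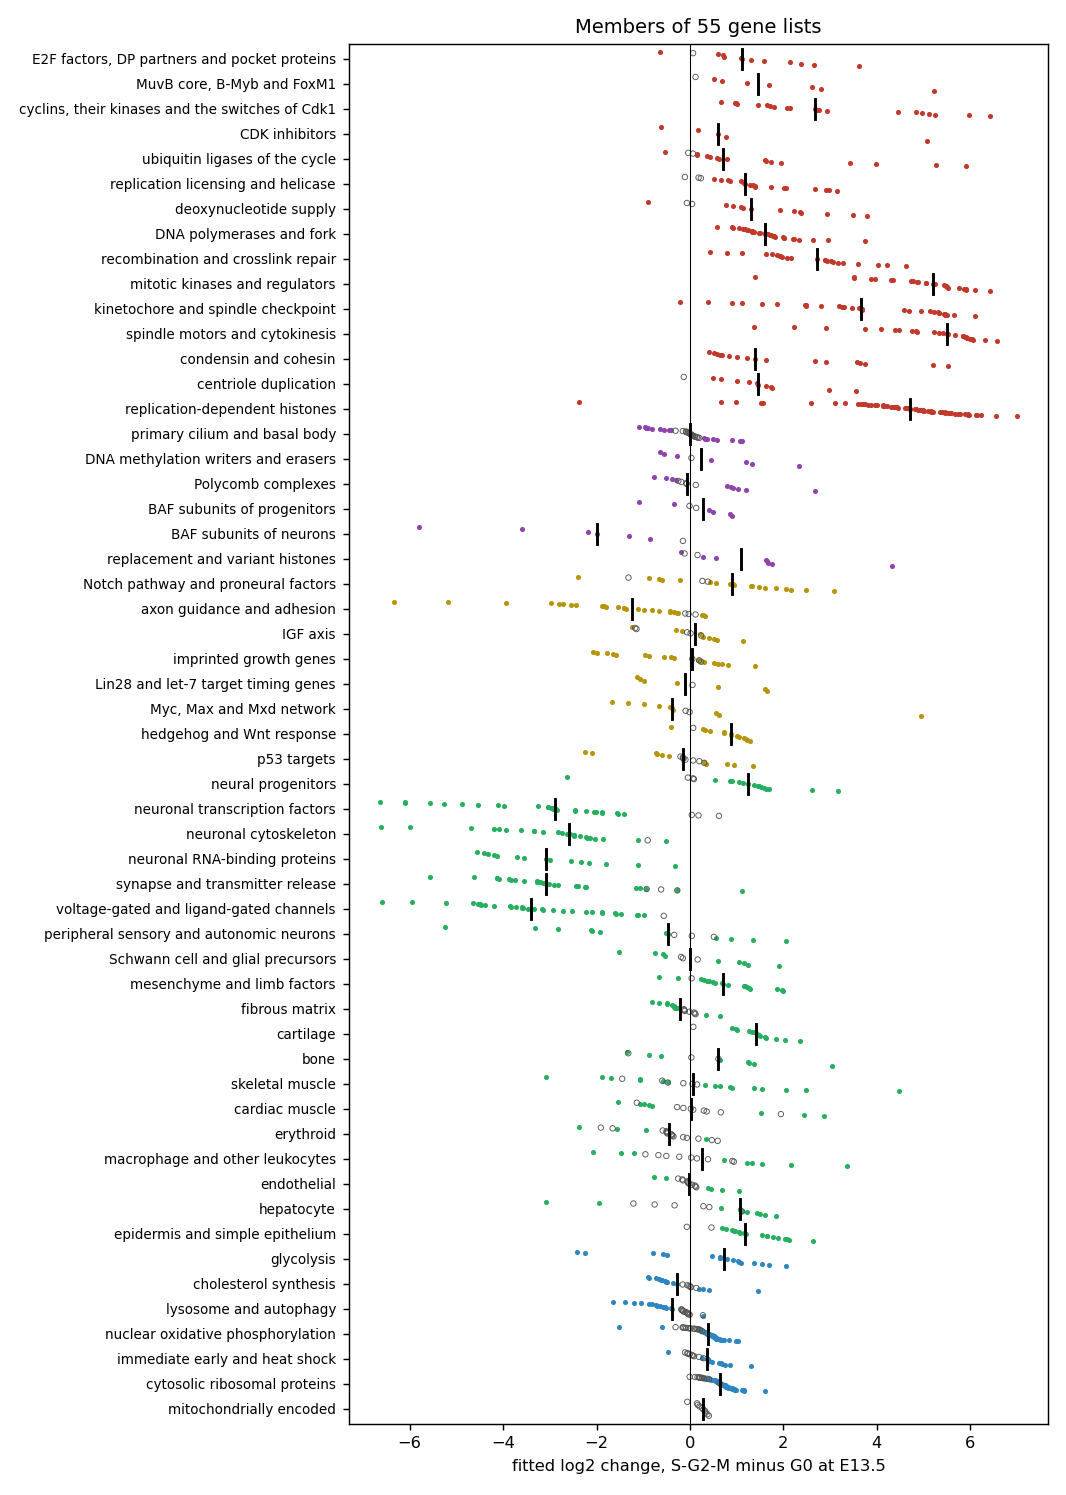
Fitted log2 change S-G2-M minus G0 of each tested member of 55 gene lists (1 row per list), filled where the adjusted p was under 0.05 and open where it was not, with the list median as a black bar. The medians run from 5.501 for spindle motors and cytokinesis to -3.39 for channels.

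Cartilage genes rose as a group. Of 16 tested 15 rose and none fell (median 1.42), and their summed level was 5241 and 5299.8 CPM in S-G2-M, against 2052 and 1968 CPM in G0. Sox9, the factor that commits cells to cartilage, stood at 125 and 133 CPM in S-G2-M, against 47.9 and 44.4 CPM in G0 (1.48 ± 0.08). Col2a1, the main cartilage collagen, stood at 2374 and 2528 CPM in S-G2-M, against 795 and 802 CPM in G0 (1.62 ± 0.07). The proteoglycan aggrecan, Acan, stood at 246 and 201 CPM in S-G2-M, against 72.3 and 52.8 CPM in G0 (1.85 ± 0.09) and the matrilin Matn3 at 26.1 and 18.5 CPM in S-G2-M, against 5.704 and 3.04 CPM in G0 (2.36 ± 0.16). Sox6 rose by 0.99 ± 0.07, and Sox5 at 0.07 ± 0.07 did not pass (adjusted p = 0.409). Of 11 bone genes 5 rose and 3 fell. Alpl, the alkaline phosphatase, rose by 1.36 ± 0.13, Sp7, the factor of osteoblasts, by 1.26 ± 0.20 and Ihh, the hedgehog ligand of cartilage growth, by 1.24 ± 0.24, whereas Phex, an enzyme of phosphate handling in bone, fell by 1.35 ± 0.17. Ucma and Bglap, late markers of cartilage and bone, were too low to test.

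Mesenchymal factors were mostly higher and fibrous matrix genes mostly not. Of 20 factors of mesenchyme and limb 17 rose, or 11 with all 25 libraries, and 2 fell (median 0.70). Msx1, of limb bud and facial mesenchyme, stood at 40.5 and 42.5 CPM in S-G2-M, against 9.86 and 11.4 CPM in G0 (1.97 ± 0.11). Tbx4, of the hindlimb, stood at 26.02 and 16.7 CPM in S-G2-M, against 6.35 and 5.28 CPM in G0 (1.87 ± 0.14), and Twist1, a general factor of mesenchyme, at 97.1 and 89.4 CPM in S-G2-M, against 42.8 and 37.8 CPM in G0 (1.21 ± 0.08). Tcf21, of visceral mesenchyme, rose by 1.98 ± 0.21. Shox2, of proximal limb bones, fell by 0.66 ± 0.09 and Osr1 by 0.26 ± 0.09, and Osr1 lost its call without preparation 5 (adjusted p = 0.337) or without 8 (adjusted p = 0.0778). Of 18 matrix genes 2 rose and 9 fell, or 3 with all 25 libraries (median -0.21). Dcn, the proteoglycan decorin, stood at 49.2 and 36.02 CPM in S-G2-M, against 85.4 and 65.3 CPM in G0 (-0.82 ± 0.12), and Col1a1, the main collagen of connective tissue and bone, at 905 and 987 CPM in S-G2-M, against 1468 and 1518 CPM in G0 (-0.66 ± 0.07). Tnc, tenascin C, rose by 0.65 ± 0.07 and Fbn2, the fetal fibrillin, by 0.34 ± 0.07.

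Skeletal muscle genes went both ways. Of 23 tested 10 rose and 7 fell (median 0.06), the second count being 4 without preparation 5 and 3 with all 25 libraries. Myf5, of committed precursors, stood at 8.19 and 8.02 CPM in S-G2-M, against 0.5504 and 0.1600 CPM in G0 (4.47 ± 0.31), on 11 and 3 counts in the G0 libraries. Myod1, of myoblasts, stood at 31.01 and 27.9 CPM in S-G2-M, against 4.704 and 5.87 CPM in G0 (2.48 ± 0.14), and Myog, of cells about to fuse, at 35.3 and 29.4 CPM in S-G2-M, against 19.1 and 16.5 CPM in G0 (0.86 ± 0.10). Pax7, of muscle stem cells and dorsal neural tube, rose by 0.91 ± 0.11. Contractile genes differed in direction: Myh3, embryonic myosin, fell to 5.300 and 4.94 CPM in S-G2-M, against 44.1 and 42.9 CPM in G0 (-3.09 ± 0.12), while Tnnt1 rose by 1.55 ± 0.12. Among further contractile genes, called or not, Tnnc2, Acta1, Mylpf, Myl1, Myh8 and Ttn were at -1.89, -1.69, -1.07, -1.07, -0.58 and -0.47. Actc1 was at 0.54. Of 17 cardiac genes 3 rose and 5 fell. Ryr2, of heart and neurons, stood at 15.95 and 15.3 CPM in S-G2-M, against 43.5 and 46.7 CPM in G0 (-1.53 ± 0.10) and Nkx2-5, the heart factor, at 1.57 and 2.36 CPM in S-G2-M, against 0.3002 and 0.213 CPM in G0 (2.88 ± 0.46). Tnnt2 and Actn2 fell by 0.88 ± 0.18 and 0.99 ± 0.20, and the atrial myosin Myh6 at 1.78 and 4.44 CPM in S-G2-M, against 2.002 and 3.68 CPM in G0 differed more between preparations than between gates.

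Epithelial genes rose. Of 20 genes of epidermis and simple epithelium 18 rose and none fell (median 1.18), with a summed level of 379.6 and 394 CPM in S-G2-M, against 132 and 137 CPM in G0. Krt14 and Krt5, the keratins of the basal layer, stood at 43.4 and 47.5 CPM in S-G2-M, against 6.81 and 7.73 CPM in G0 (2.64 ± 0.11), and at 34.9 and 44.8 CPM in S-G2-M, against 9.11 and 9.07 CPM in G0 (2.12 ± 0.12), with no overlap between the gates. Trp63, the factor of basal cells, stood at 25.1 and 25.3 CPM in S-G2-M, against 6.15 and 5.81 CPM in G0 (2.07 ± 0.13) and Epcam, of simple epithelium, at 29.9 and 27.9 CPM in S-G2-M, against 6.76 and 7.31 CPM in G0 (2.04 ± 0.12). Those not called were Cldn3 and Krt17.

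Blood, vessel and liver markers did not share a direction. Of 20 erythroid genes 1 rose and 3 fell, 1 without preparation 5 and 11 with only the 4 libraries fitted, and their sum was 574 and 443 CPM in S-G2-M, against 815 and 698 CPM in G0. Tal1, also a factor of spinal interneurons, fell by 2.38 ± 0.16, at 5.82 and 5.94 CPM in S-G2-M, against 32.9 and 28.4 CPM in G0. Hbb-y, an embryonic globin of a family of near-identical copies, stood at 37.6 and 47.04 CPM in S-G2-M, against 107 and 142 CPM in G0 (-1.55 ± 0.40) and lost its call without preparation 5 (adjusted p = 0.260) or without 8 (adjusted p = 0.279). Of 18 leukocyte genes 6 rose and 3 fell, 1 without preparation 5. Mpo, of myeloid progenitors, stood at 6.14 and 13.6 CPM in S-G2-M, against 1.15 and 0.693 CPM in G0 (3.36 ± 0.73) and Ptprc, CD45, at 3.99 and 5.16 CPM in S-G2-M, against 1.65 and 1.44 CPM in G0 (1.54 ± 0.25). Of 17 endothelial genes 4 rose and 2 fell, while 1 rose and 1 fell without preparation 8 and none fell without 5. Erg, the endothelial factor also found in cartilage, stood at 25.1 and 23.6 CPM in S-G2-M, against 11.96 and 11.6 CPM in G0 (1.05 ± 0.11), whereas Cdh5 (-0.15 ± 0.16) and Pecam1 (0.05 ± 0.12) did not pass. Of 17 hepatocyte genes 9 rose, a count that was 3 without preparation 8, and 2 fell. Their sum was 43.8 and 50.1 CPM in S-G2-M, against 86.4 and 70.1 CPM in G0, with Ttr, which the choroid plexus also makes, at 4.15 and 6.37 CPM in S-G2-M, against 49.9 and 37.5 CPM in G0 (-3.09 ± 0.18) and Afp, the fetal plasma protein, at 11.2 and 14.1 CPM in S-G2-M, against 5.75 and 6.24 CPM in G0 (1.06 ± 0.25). The part of these cells in the other results was not tested.

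Growth and timing genes did not share a direction. Igf1, a growth factor made by mesenchyme, stood at 69.5 and 54.3 CPM in S-G2-M, against 165 and 127 CPM in G0 (-1.23 ± 0.11), and Igf2 did not pass (969 and 1189 CPM in S-G2-M, against 808 and 1019 CPM in G0, adjusted p = 0.211). Igf2bp1, an RNA-binding protein of fetal growth, stood at 353 and 388 CPM in S-G2-M, against 163 and 172 CPM in G0 (1.14 ± 0.07). Of 21 imprinted growth genes 8 rose and 10 fell, the first count being 5 without preparation 5 and 2 with all 25 libraries. Snrpn, Magel2, Nnat and Ndn, which brain expresses, fell by 2.07 ± 0.13, 1.98 ± 0.15, 1.78 ± 0.07 and 1.65 ± 0.07, while Grb10 and Mest rose by 0.82 ± 0.07 and 0.59 ± 0.07. Of the Lin28 and let-7 timing genes Hmga2 stood at 281 and 267 CPM in S-G2-M, against 87.8 and 86.6 CPM in G0 (1.65 ± 0.07), and Lin28b, which blocks let-7, at 16.6 and 15.5 CPM in S-G2-M, against 31.98 and 31.8 CPM in G0 (-0.98 ± 0.10). Of the 8 genes of that list 4 fell, 2 of them without preparation 8. In the Myc network the antagonists split: Mxd3, which is made in S phase, stood at 46.2 and 57.1 CPM in S-G2-M, against 1.301 and 2.03 CPM in G0 (4.95 ± 0.17), whereas Mxd4, Mxd1 and Mxi1 fell by 1.68 ± 0.08, 1.33 ± 0.09 and 0.97 ± 0.09. Myc itself stood at 25.5 and 26.6 CPM in S-G2-M, against 16.4 and 18.9 CPM in G0 (0.56 ± 0.12).

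Of 15 genes of hedgehog and Wnt signalling 13 rose and 1 fell (median 0.87). Gli1, the target of hedgehog signalling, stood at 58.8 and 70.2 CPM in S-G2-M, against 24.6 and 30.6 CPM in G0 (1.22 ± 0.14), and Ptch1, the receptor and also a target, at 321 and 300.4 CPM in S-G2-M, against 195 and 181 CPM in G0 (0.73 ± 0.07). Axin2, a Wnt target, rose by 0.33 ± 0.09. The gene that fell was Rspo3 (-0.41 ± 0.11), which lost its call without preparation 5 (adjusted p = 0.194). Of 19 p53 targets 5 rose (3 with all 25 libraries) and 6 fell. Trp53inp1, an autophagy regulator, stood at 27.8 and 24.8 CPM in S-G2-M, against 135 and 117 CPM in G0 (-2.26 ± 0.09) and Bbc3, the apoptosis gene Puma, at 1.42 and 2.86 CPM in S-G2-M, against 7.96 and 9.81 CPM in G0 (-2.100 ± 0.21), while Pmaip1, the apoptosis gene Noxa, stood at 3.88 and 4.73 CPM in S-G2-M, against 1.45 and 1.92 CPM in G0 (1.34 ± 0.25).

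Of 18 glycolysis genes 13 rose and 5 fell (median 0.73). Hk2 and Ldha, forms used in growing tissue, stood at 70.9 and 81.1 CPM in S-G2-M, against 23.8 and 22.9 CPM in G0 (1.698 ± 0.08), and at 411 and 403 CPM in S-G2-M, against 149.9 and 131 CPM in G0 (1.54 ± 0.07). The paralogues Hk1 and Ldhb fell by 0.79 ± 0.07 and 0.48 ± 0.10, and Eno2 and Pfkp, enriched in neurons, by 2.26 ± 0.16 and 2.42 ± 0.09. Among 21 genes of cholesterol synthesis 11 fell and 4 rose, or 1 rose without preparation 8. Lss, which makes lanosterol, stood at 45.8 and 50.6 CPM in S-G2-M, against 85.6 and 94.03 CPM in G0 (-0.90 ± 0.07) and Hmgcs1 at 215 and 203 CPM in S-G2-M, against 394 and 376 CPM in G0 (-0.88 ± 0.07). Lysosome and autophagy genes fell in 14 of 27 cases (median -0.39), with Atp6v0a1, a proton pump subunit also of synaptic vesicles, at -1.65 ± 0.08 and Gabarapl1 at -1.38 ± 0.09. Of 80 cytosolic ribosomal protein genes 68 rose and none fell (median 0.65). Nuclear genes of oxidative phosphorylation numbered 76, of which 59 rose and 2 fell, none without preparation 5 (median 0.38). With all 25 libraries only 12 of them rose, at a median of 0.39.

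Levels of immediate early, heat shock and mitochondrially encoded genes varied between gates and preparations. Whether handling of the cells was behind this was not tested. Of 23 immediate early and heat shock genes, which tissue dissociation can induce, 13 rose, or 7 with no block for preparation and 7 with all 25 libraries, and 1 fell, with a summed level of 1956 and 2479 CPM in S-G2-M, against 1588 and 1837 CPM in G0. Egr1 stood at 234 and 344 CPM in S-G2-M, against 148 and 192 CPM in G0 (0.75 ± 0.07), higher in preparation 8 than in 5 in both gates, and Dusp1, a phosphatase of kinase signals, at 40.1 and 47.4 CPM in S-G2-M, against 54.4 and 67.8 CPM in G0 (-0.48 ± 0.09). None of 10 mitochondrially encoded genes passed the edgeR test, while 6 rose with only the 4 libraries fitted. Their sum was 8157 and 7614 CPM in S-G2-M, against 5841 and 7511 CPM in G0, so that the G0 library of preparation 5 was the lowest. The part of these differences in the other results was not tested.

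The change between the gates was then set against the same change at E10.5 and E11.5, in 1 model of all 25 libraries. Of 25444 genes tested, the change was higher at E13.5 for 1340 (5.27%) and lower for 1321 (5.19%), or 4.31% and 3.01% with a difference of at least 2-fold, and the median difference over all genes was -0.11. Without preparation 5 these counts were 650 and 366, without 8 they were 547 and 430, and the lower count was 786 without WT2. The day cannot be told apart from the WT-titled against the 5 and 8 preparations. The share of mitochondrially encoded genes was 1.66% to 3.42% at E13.5 and 0.372% to 0.70% earlier, and 45 genes at 0 in every earlier library had at least 200 counts at E13.5. The CPM in this part are scaled over all 25 libraries and differ slightly from those above.

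**Figure D5:**
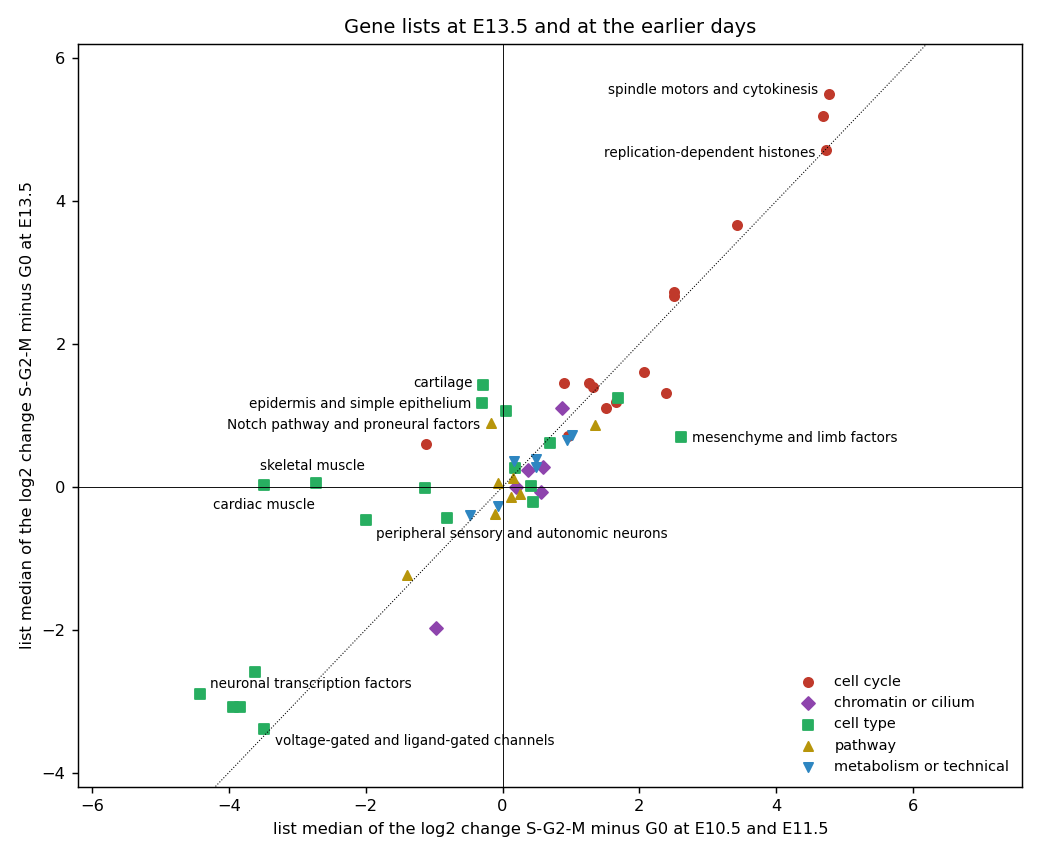
Median log2 change S-G2-M minus G0 of each list at E13.5 (vertical) against E10.5 and E11.5 (horizontal), with the line of equal change dotted. Most lists of the cell cycle lie near the line, while skeletal and cardiac muscle, cartilage, epithelium and neuronal factors lie above it and mesenchyme and limb factors (0.70 at E13.5, 2.61 earlier) lie below it.

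Muscle and heart genes had the largest median differences between the days. In skeletal muscle 18 of 24 genes had a higher change at E13.5 and 1 a lower (median difference 3.04), and in cardiac muscle 13 of 18 had a higher (median 3.28), against 5.27% of all genes. The median change was 0.06 at E13.5 and -2.73 earlier for skeletal muscle, and 0.02 at E13.5 and -3.49 earlier for cardiac muscle. The cardiac median at E13.5 rests on low levels. On the scale of the E13.5 libraries the whole list summed to 48.6 and 69.6 CPM in S-G2-M, against 85.6 and 103.2 CPM in G0. Myh6 was at 1.795 and 4.39 CPM in S-G2-M and 1.99 and 3.63 CPM in G0 at E13.5, while earlier it was at 2.21, 4.87 and 5.71 CPM in S-G2-M and 52.1, 168 and 127 CPM in G0 (difference 4.81 ± 0.60). In G0 every earlier level was above both levels at E13.5, while in S-G2-M the levels overlapped. Actc1, the alpha-cardiac actin that young skeletal muscle also uses, was at 60.6 and 55.6 CPM in S-G2-M and 42.7 and 36.5 CPM in G0 at E13.5, and earlier at 3.35, 7.87 and 4.62 CPM in S-G2-M and 35.4, 118 and 107 CPM in G0 (difference 4.54 ± 0.31).

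Cartilage and epithelial genes had a higher change at E13.5. In cartilage 9 of 16 genes had a higher change and 1 a lower (median change 1.42 at E13.5 and -0.28 earlier), and in epithelium 16 of 20 had a higher, or 7 without preparation 5 and 10 without 8 (median change 1.18 at E13.5 and -0.30 earlier). Cnmd, the cartilage matrix protein chondromodulin, had the largest difference of any gene by the rule used for Pif1. It was at 37.4 and 32.2 CPM in S-G2-M and 15.1 and 12.5 CPM in G0 at E13.5, and earlier at 0.822, 0.703 and 0.749 CPM in S-G2-M and 35.2, 26.6 and 28.9 CPM in G0 (difference 6.64 ± 0.34, edgeR adjusted p = 3.70e-10). The direction between the gates was therefore opposite. Col11a2, a collagen of cartilage, changed by 1.42 at E13.5 and -1.76 earlier.

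Neuronal lists had negative medians at all days, and for many genes of some lists the fall was smaller at E13.5. The median for the factors was -2.897 at E13.5 and -4.43 earlier. Channels hardly differed, with medians of -3.39 at E13.5 and -3.485 earlier and 7 of 34 genes higher and 3 lower. Of 15 RNA-binding genes 4 had a higher change and 0 a lower, or 1 a lower at an unadjusted p under 0.05 (edgeR). Of the neuronal factors 15 of 30 had a higher, less negative change at E13.5 and 2 a lower, and of the cytoskeleton genes 15 of 26 a higher, or 9 without preparation 5, 8 without 8 and 9 without WT2, and 1 a lower. Nefl, the light neurofilament protein, was at 23.02 and 30.2 CPM in S-G2-M and 153 and 138 CPM in G0 at E13.5, and earlier at 7.32, 7.98 and 8.72 CPM in S-G2-M and 795, 839 and 839 CPM in G0 (difference 4.21 ± 0.26). Bcl11b, a subunit of neuronal BAF complexes, went the other way, at 112 and 124 CPM in S-G2-M and 263 and 317 CPM in G0 at E13.5, and earlier at 47.4, 35.9 and 22.1 CPM in S-G2-M and 21.2, 12.9 and 7.53 CPM in G0 (difference -2.68 ± 0.18).

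Mesenchymal genes had a smaller rise at E13.5. Of 20 mesenchyme and limb factors 15 had a lower change at E13.5 and 1 a higher (median difference -1.77), against 5.19% of all genes for the first. Meox1, a somite factor, was at 13.04 and 12.1 CPM in S-G2-M and 12.7 and 11.7 CPM in G0 at E13.5, and earlier at 42.5, 69.6 and 56.5 CPM in S-G2-M and 2.02, 4.83 and 5.56 CPM in G0 (difference -3.79 ± 0.26). Igf1 was at 69.9 and 53.7 CPM in S-G2-M and 164 and 125 CPM in G0 at E13.5, and earlier at 83.3, 77.2 and 59.1 CPM in S-G2-M and 8.93, 14.7 and 13.3 CPM in G0 (difference -3.81 ± 0.23), a reversal of the direction between the gates. Zic1, a factor of dorsal neural tube and somites, likewise changed by -1.805 at E13.5 and 1.95 earlier.

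Within the cell cycle, spindle and replication genes differed between days in opposite directions, and the counts depended on single preparations. Of 27 spindle genes 10 had a higher change at E13.5 and none a lower, while 5 of 23 licensing genes and 6 of 31 polymerase and fork genes had a lower and none a higher. Over all genes tested 5.27% had a higher and 5.19% a lower change. Without 1 preparation at a time 4 to 18 spindle genes had a higher change. The licensing genes with a lower change numbered 0 without 5, 1 without 8, 1 without WT1 and 2 without WT2 (edgeR, and 3 to 7 at an unadjusted p under 0.05). No polymerase and fork gene passed the edgeR test without 5, 8, WT1 or WT2, where 3 to 11 were lower at an unadjusted p under 0.05. With every preparation in, 1 licensing gene was higher at an unadjusted p under 0.05 and 1 with DESeq2, and no spindle gene was lower and no polymerase and fork gene higher by either. No histone gene of 65 and no oxidative phosphorylation gene of 76 passed the edgeR test of the difference. At an unadjusted p under 0.05 there were 2 higher and 1 lower histone genes and 2 lower genes of oxidative phosphorylation, and DESeq2 called 2 histone genes higher. Kpna2, an importin of spindle assembly, was at 91.7 and 77.6 CPM in S-G2-M and 4.27 and 4.16 CPM in G0 at E13.5, and earlier at 41.8, 32.4 and 61.5 CPM in S-G2-M and 7.94, 9.84 and 9.82 CPM in G0 (difference 2.04 ± 0.32). Dctd, which feeds thymidylate synthesis, had the opposite difference, -1.56 ± 0.24, with a change of 1.32 at E13.5 and 2.88 earlier. Mxd3 was at 46.5 and 56.5 CPM in S-G2-M and 1.29 and 2.002 CPM in G0 at E13.5, and earlier at 20.7, 18.95 and 18.5 CPM in S-G2-M and 6.43, 4.12 and 4.75 CPM in G0 (difference 3.03 ± 0.32). Cdkn1c was at 623 and 594 CPM in S-G2-M and 538 and 538 CPM in G0 at E13.5, and earlier at 81.4, 107 and 93.5 CPM in S-G2-M and 291, 282 and 370.4 CPM in G0 (difference 1.92 ± 0.23). Its level in S-G2-M was thus slightly above that in G0 at E13.5 and below it at the earlier days. Lin28b, at 16.7 and 15.4 CPM in S-G2-M and 31.8 and 31.4 CPM in G0 at E13.5, was at 166, 217 and 259 CPM in S-G2-M and 149.9, 169.7 and 198 CPM in G0 earlier (difference -1.27 ± 0.19). All 4 levels at E13.5 were below all 6 earlier ones.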

How the data were processed

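The values are raw counts per gene and sequencing lane that the authors deposited, made on mm10 with STAR 2.5.3 and HTSeq 0.8.0 per the submitters' processing notes. The annotation release and any use of strand were not given in the sources used here. Per the labels' protocols, minced embryos were flow-sorted, and rRNA-depleted RNA was sequenced. The lanes of a library were summed. The members and gene lists were chosen with earlier results of these data known.

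The main fit was edgeR 4.0.16 in R 4.3.3 (TMM, filterByExpr with a minimum count of 10 and total of 15, robust quasi-likelihood F test, Benjamini-Hochberg adjustment over all genes tested), on the 10 libraries of E13.5 with preparation as a block, which left 4 residual degrees of freedom. The other 3 fractions inform the spread, the filter and the size factors. Libraries of a preparation share its number in the titles, and the deviations of preparations 5 and 8 correlated between S-G2-M and G0 (r = 0.619 over 11413 genes, 0.509 without sex genes). That was the highest r of any pair of fractions. Without sex genes it was -0.123 for G0 and G1, 0.101 for G1 and S-G2-M, and 0.5 for G1-S and S-G2-M. The difference between days was an interaction over 25 libraries with 12 residual degrees of freedom. SE was computed as |log2 change| over the root of the F statistic, and a pseudocount of 0.5 was used for log2 levels. The 4 libraries held 14692256 to 20122813 counts, and 3 counts were worth 0.15 to 0.20 CPM, a range that reflects depth only and is no error interval. Lanes of a library differed by 1.09 to 1.23 times their Poisson variance, so they were treated as repeat runs. Genes were named by rule: the 12 highest and 12 lowest above the level minimum (log2 CPM 3), up to 3 members each way per list with the members against its majority, fixed regulators, and for the difference the 5 highest and 5 lowest with list members. Genes named beyond this rule were chosen after their values were seen, and some genes that the rule gives are not reported here. Exon overlaps with genes on the other strand were taken from GENCODE M21 (GRCm38), and promoter windows from RefSeq. Alternatives were DESeq2 1.42.0, other size factors, filters and sets of libraries, no block and each preparation left out. The fits were also run on simulated counts in which few genes changed and preparations did not differ. The real data differ in both respects, so that run does not measure their error rates.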

Additional observations from a re-analysis of the deposited data

Results flagged for a closer look

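For 29 genes the change S-G2-M minus G0 differed between E13.5 and the earlier days by the interaction test of all 25 libraries (edgeR, adjusted p under 0.05), and each is given as the difference ± SE on the log2 scale with the change at E13.5 and at E10.5 and E11.5 behind it. They were picked from the genes that the naming rule gives, with their values known, and each kept its call with every preparation left out in turn. The day cannot be told apart from the set of preparations, and the part of RNA quality was not tested.

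Of cartilage and connective tissue, Cnmd differed by 6.64 ± 0.34 (1.34 at E13.5, -5.296 earlier) and Col11a2 by 3.18 ± 0.40 (1.42 at E13.5, -1.76 earlier). Ogn, a small matrix proteoglycan, differed by -3.82 ± 0.44 (-1.38 at E13.5, 2.44 earlier) and Igf1 by -3.81 ± 0.23 (-1.22 at E13.5, 2.58 earlier). Of somite and limb factors, Meox1 differed by -3.79 ± 0.26 (0.05 at E13.5, 3.84 earlier) and Meox2 by -3.20 ± 0.30 (0.84 at E13.5, 4.04 earlier). The dorsal factors Zic1 and Zic4 differed by -3.76 ± 0.22 and -3.46 ± 0.20, with changes of -1.805 and -1.54 at E13.5 and 1.95 and 1.92 earlier, and Pax7 by -2.47 ± 0.26 (0.92 at E13.5, 3.39 earlier). For these genes the sign of the difference shows which day had the higher change.

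Of muscle, Myh6 differed by 4.81 ± 0.60 (0.10 at E13.5, -4.71 earlier), Actc1 by 4.54 ± 0.31 (0.55 at E13.5, -3.98 earlier) and Chrnd, a subunit of the muscle acetylcholine receptor, by 4.92 ± 0.83 (2.07 at E13.5, -2.84 earlier). Chrnd was near the floor, at 0.0851, 0.136 and 0.0749 CPM in the earlier S-G2-M libraries and 0.447 and 0.421 CPM in G0 at E13.5. Cldn3, a tight junction protein of epithelium, differed by 2.52 ± 0.39 (0.47 at E13.5, -2.04 earlier).

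Of neurons, Dbh differed by 7.99 ± 0.43 (1.12 at E13.5, -6.87 earlier) and Runx3 by 4.59 ± 0.66 (2.09 at E13.5, -2.496 earlier). Both were near the floor in the earlier S-G2-M libraries, Dbh at 0.142, 0.159 and 0.206 CPM and Runx3 at 0.199, 0.113 and 0.131 CPM. Slc18a3, the acetylcholine transporter of vesicles, differed by 7.18 ± 0.56 (-0.91 at E13.5, -8.09 earlier), on 0.142, 0.0907 and 0.112 CPM in the earlier S-G2-M libraries. The neurofilament genes Nefl and Nefm differed by 4.21 ± 0.26 and 3.90 ± 0.27, with changes of -2.48 and -2.62 at E13.5 and -6.68 and -6.52 earlier. Neurog2 differed by 2.75 ± 0.26 (1.49 at E13.5, -1.26 earlier), Mfng, which modifies Notch, by 2.91 ± 0.22 (0.93 at E13.5, -1.98 earlier) and Bcl11b by -2.68 ± 0.18 (-1.29 at E13.5, 1.38 earlier).

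Of the cell cycle and growth, Mxd3 differed by 3.03 ± 0.32 (4.97 at E13.5, 1.94 earlier), Kpna2 by 2.04 ± 0.32 (4.32 at E13.5, 2.28 earlier), Ckap2, a spindle protein, by 1.61 ± 0.23 (4.397 at E13.5, 2.79 earlier) and Cdkn1c by 1.92 ± 0.23 (0.18 at E13.5, -1.74 earlier). Dctd differed by -1.56 ± 0.24 (1.32 at E13.5, 2.88 earlier), Gli1 by -1.53 ± 0.29 (1.24 at E13.5, 2.77 earlier), Hmga2 by -1.49 ± 0.25 (1.66 at E13.5, 3.16 earlier) and Lin28b by -1.27 ± 0.19 (-0.98 at E13.5, 0.29 earlier).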

How the results depend on the processing

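The count of genes higher in S-G2-M was 3847 when all 25 libraries shared the spread, and the counts were 1885 higher and 3291 lower with at least 2-fold asked for. Without preparation 5 they were 5136 and 4917, without preparation 8 they were 4862 and 4987, and with DESeq2 5335 and 5450. With no replicate block, that is without pairing by preparation, 5555 were higher and 6126 lower, and in the test between days 1035 and 1046. Leaving out each preparation in turn gave 547 to 1333 genes with a higher and 366 to 1026 with a lower change at E13.5, and 1986 were lower with only S-G2-M and G0 libraries.

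Of the 366 genes named in S-G2-M against G0, 26 lost their call without preparation 5 and 28 without preparation 8, 13 with DESeq2, 45 with all 25 libraries and 11 with no replicate block. Of named genes that passed, the direction turned for Lyz2 alone, to 0.224 without preparation 5 (adjusted p = 0.755; -2.497 without 8). The median of the Lin28 list turned to 0.035 at a minimum count of 50. Medians near 0 also changed sign: skeletal muscle -0.06 without 8, cardiac muscle -0.14 without 8 and -0.01 with no replicate block, Schwann cells -0.03 without 5, and endothelium 0.001 to 0.07 under 5 settings. At the minimum count of 50 cardiac muscle was at -0.08, Schwann cells and cilium at -0.01. Of 125 genes named for the difference between days, 51 lost the call without preparation 5 and 53 without 8. The causes were not tested. Depth limits genes near 0.2 CPM, where 3 counts set the floor.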

Other observations

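The other fractions of the same preparations served above for counts of direction, and their levels are given here as values. Ccne1, the cyclin of S phase entry, stood at 50.4 and 50.7 CPM in S-G2-M, 91.4 and 83.95 CPM in G1-S, 24.9 and 25.4 CPM in G1 and 11.8 and 12.3 CPM in G0. Mcm5 stood at 214 and 236 CPM in S-G2-M, 281 and 287 CPM in G1-S, 124 and 136 CPM in G1 and 70.1 and 65.3 CPM in G0. Both were highest in G1-S in both preparations, whereas Mki67 was highest in S-G2-M, at 2261 and 2269 CPM in S-G2-M, 1158 and 1082 CPM in G1-S, 87.6 and 83.2 CPM in G1 and 49.6 and 50.5 CPM in G0. The neurofilament gene Ina stood at 3.94 and 8.23 CPM in S-G2-M, 37.4 and 53.8 CPM in G1-S, 14.3 and 14.3 CPM in G1 and 533 and 605 CPM in G0. The embryonic globin Hbb-y stood at 37.6 and 47.04 CPM in S-G2-M, 844 and 532 CPM in G1-S, 1108 and 1792 CPM in G1 and 107 and 142 CPM in G0, and at 12394 and 17144 CPM in unsorted cells, far above every sorted fraction.

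Between the sets of preparations, 45 genes at 0 in every E10.5 and E11.5 library had at least 200 counts at E13.5, Gm42418 among them, and 365 genes at 0 in every E13.5 library had at least 200 counts earlier.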
